A study of Bos taurus with 22 samples.

Results

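Translation initiation and elongation factors are the proteins that bring a ribosome to an mRNA and then carry it along the message. The genes described here were taken by a naming rule and not by their values, but with earlier results of these data known. The rule took every protein-coding gene of the count table whose symbol begins with EIF or EEF followed by a digit. This gave 63 of 27570 genes. They were 5 genes of the EIF1 and EIF6 groups, 14 EIF2, 13 EIF3, 16 EIF4, 4 EIF5 and 11 EEF genes. The naming rule also takes in regulators that are not factors themselves, such as the eIF2 kinases, the eIF4E binding proteins, the eEF2 kinase and the methyltransferases that modify eEF1A and eEF2.

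Polyadenylated RNA was sequenced from scraped jejunal mucosa of 22 Holstein steers (castrated male cattle, up to about a year old), each with a catheter in the abomasum, the true stomach of ruminants. Every steer, controls included, was limit-fed alfalfa cubes and received 3.94 g raw corn starch per kg body weight (BW) and day into the abomasum for 7 d. The starch was given with water or with casein at 1.3 g/kg BW and day, and steers were injected under the skin with bovine serum albumin (BSA) vehicle or with 100 µg/kg BW and day of glucagon-like peptide 2 (GLP-2), a gut hormone that promotes growth of the intestinal mucosa. The deposited set holds 5 control steers (water, BSA), 5 GLP-2 steers (water, GLP-2), 6 casein steers (casein, BSA) and 6 casein + GLP-2 steers, each with 1 library. The study had assigned equal numbers to the 4 treatments. It left out a control steer for low RNA integrity, and it reported more GLP-2-injected steers than this set holds. The study asked what postruminal casein infusion and exogenous GLP-2 each do to the mucosal transcriptome, and as in the study each factor was compared with steers pooled over the other.

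In initiation, eIF2 delivers the initiator tRNA to the small ribosomal subunit, where eIF1, eIF1A and the large eIF3 complex assemble around it, while eIF4E, eIF4G and eIF4A bind the mRNA cap and open the leader, and eIF5 and eIF5B release the factors and join the large subunit. In elongation, eEF1A brings each aminoacyl-tRNA, the eEF1B complex recharges eEF1A with GTP, and eEF2 moves the ribosome by a codon. Amino acids and growth signals act on these steps mainly through phosphorylation: mTORC1 frees eIF4E from its binding proteins and holds back the eEF2 kinase, and kinases such as GCN2 phosphorylate eIF2 and thereby block its recharging by eIF2B. The intestinal mucosa renews itself quickly and has a high rate of protein synthesis.

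Libraries held 8809666 to 28447810 counts, of which the 63 genes took 0.971% to 2.36% (median 1.48%). All 16 villus enterocyte markers were above 0 in every steer, which checks the tissue label. The scrapings differed in B cell follicle markers, read here as the mean log2 CPM (counts scaled to the library total and a TMM factor per library) of 20 marker genes: the score was 1.31 to 6.77 in the 11 BSA-injected steers and 0.608 to 2.66 in the 11 GLP-2-injected steers, and 4 BSA-injected steers (control replicates 1, 3 and 5 and casein replicate 3) were above 5. Of the 20 markers PAX5 was at 0 in 9 steers, FCRLA in 4, and FCER2 and TNFRSF13C in 1 each. The villus enterocyte score was 6.46 to 10.8 with BSA and 9.16 to 11.2 with GLP-2, and the score of 12 proliferation markers was 4.11 to 6.17 and 4.03 to 5.71. Because these are bulk samples, fewer cells of a type and less RNA per cell cannot be told apart.

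Per gene length, elongation factors were the most abundant members. The deposited FPKM (fragments per kilobase of transcript, scaled between libraries) averaged 978 ± 271 (SD, n = 22) for EEF1A1, the main eEF1A, and 487 ± 94.7 for EEF2, the translocase. EIF1, which scans for the start codon, followed at 363 ± 75.3, EIF3K at 268 ± 76.5, EEF1G, a subunit of eEF1B, at 266 ± 134, the helicase EIF4A2 at 229 ± 37.4, and EEF1B2, the exchange subunit of eEF1B, at 222 ± 79.5. From EIF3K to EEF1B2 neighbours in this order differed by less than their SD over steers. At the other end, EEF1A2, the muscle and nerve form of eEF1A, averaged 0.24 FPKM and was above 0 in some steers only, and EIF4E1B, a cap-binding protein of the oocyte, had a single count in a single steer. These last 2 genes fell below the count filter, so 61 of the 63 genes were tested in each comparison.

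**Figure D1:**
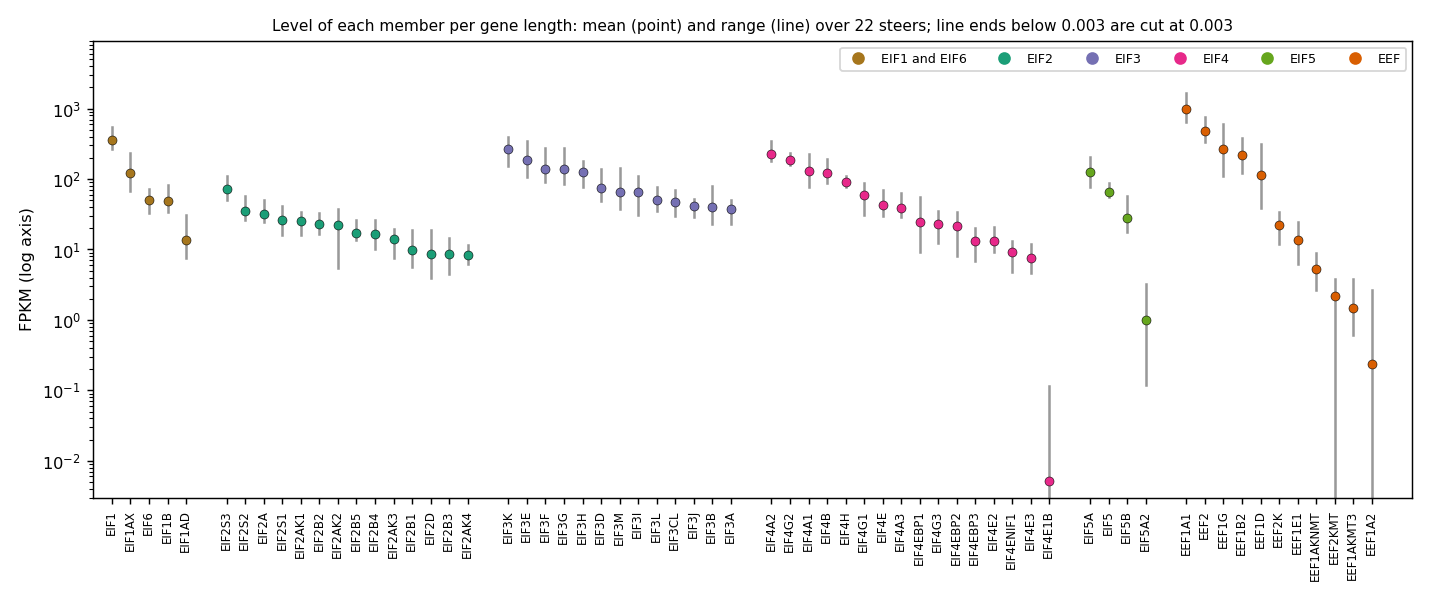
FPKM of the 63 genes on a log axis, ordered within each group by mean level. Points are means over 22 steers and lines run from the lowest to the highest steer; EEF1A1 stands highest with a mean of 978, and EEF1A2, EEF2KMT and EIF4E1B reach 0 in at least 1 steer, where their lines are cut at 0.003.

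Exogenous GLP-2 was followed by lower mRNA of many of these genes. With 11 GLP-2-injected against 11 BSA-injected steers, 23 of the 61 tested genes passed the threshold (edgeR quasi-likelihood test, Benjamini-Hochberg adjusted p of at most 0.05 over all genes tested), 20 lower and 3 higher, where 13.5% of all 13928 genes tested passed it, 8.37% lower and 5.13% higher. The median log2 fold change was -0.34 over the 61 genes and 0.01 over all genes, and 47 of the 61 were below 0, where 49.3% of all genes were. By group, 8 of 13 EIF3 genes, 4 of 14 EIF2, 2 of 4 EIF5, 2 of 15 EIF4, 3 of 10 EEF and 1 of 5 EIF1 and EIF6 genes were lower, and the 3 higher genes were the kinases EEF2K and EIF2AK3 and the scaffold EIF4G3. A further 10 genes, 9 of them lower, had an adjusted p between 0.05 and 0.1, and 26.1% of all genes had an adjusted p of at most 0.1. Without adjustment 36 members had a p of at most 0.05, as did 34.6% of all genes. The 3 higher genes are long, at 4213 (EEF2K), 4542 (EIF2AK3) and 6639 bases (EIF4G3), while EIF3B, which was lower, has 4164. With a correction for gene length 28 members passed, as did 2296 of all genes. EEF2K was then the only higher one, and the median of those 3 genes was 0.38 against 0.56. The part of gene length was not tested further. Values by steer are given below as CPM, scaled with TMM factors, which serve for comparing steers within a gene.

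**Figure D2:**
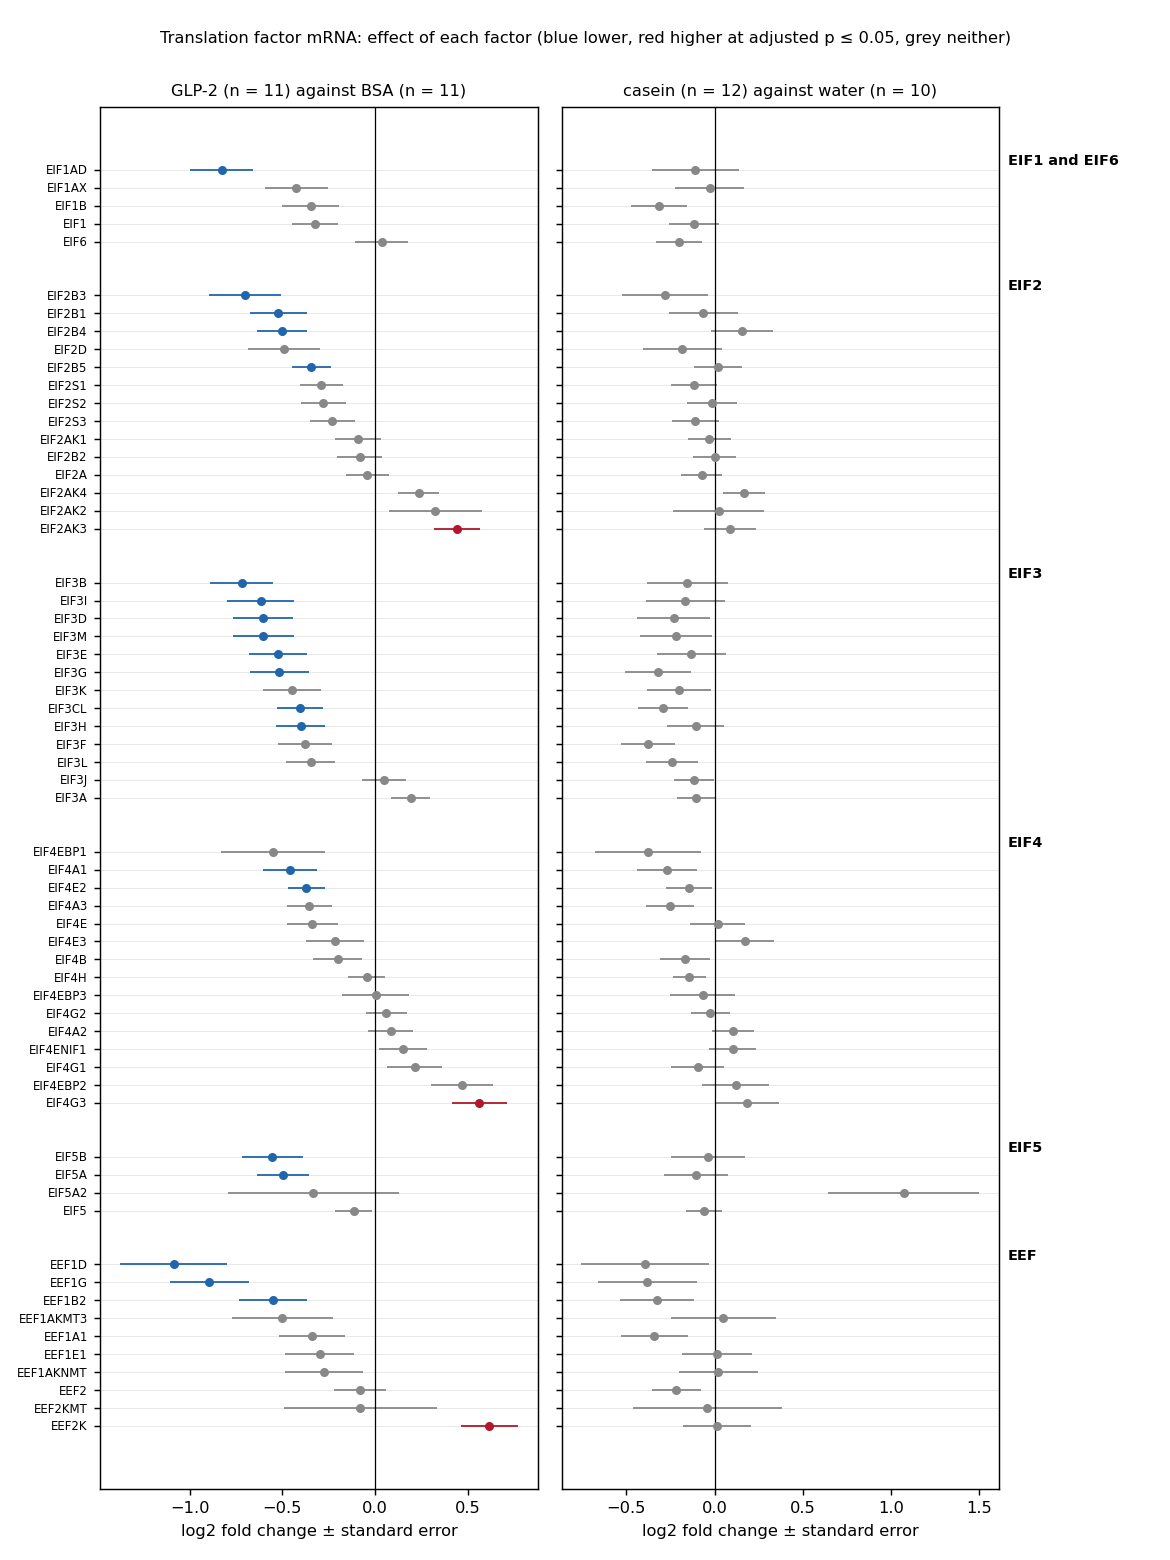
Log2 fold change (point) and standard error (line) of the 61 tested genes for GLP-2 against BSA (left) and casein against water (right). On the left 20 genes are lower (blue) and 3 higher (red) at an edgeR adjusted p of at most 0.05; on the right no gene passes.

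The eIF3 complex, which assembles on the small ribosomal subunit, had the largest share of lower members among the 6 name groups. Its core subunit EIF3B (chromosome 25, 40885875 to 40904851, minus strand, ARS-UCD1.2) was at 208, 124, 245, 147 and 316 CPM in control replicates 1 to 5 and at 129, 119, 173, 166 and 120 CPM in the GLP-2 steers. In casein steers it was between 121 and 331 CPM, and in casein + GLP-2 steers between 95.5 and 137 CPM. All 11 GLP-2-injected steers lay below the BSA median of 208 CPM and 6 below the lowest BSA steer, while the ranges overlapped. The log2 fold change of EIF3B was -0.72 ± 0.17 (SE), a level lower by 39.3% (edgeR adjusted p = 0.0202).

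The other 7 eIF3 genes past the threshold were lower as well. EIF3D, the subunit that can itself bind a cap, fell from a median of 168 CPM with BSA (range 97.0 to 253) to 105 CPM with GLP-2 (92.2 to 141), a log2 fold change of -0.60 ± 0.16 (edgeR adjusted p = 0.0246). EIF3M (-0.60, adjusted p = 0.0259), EIF3I (-0.62, 0.0307), EIF3E (-0.52, 0.0357), EIF3G (-0.52, 0.0381), EIF3CL (-0.40, 0.0368) and EIF3H (-0.40, 0.0452) followed, with log2 fold changes and edgeR adjusted p given in that order. EIF3CL is the only eIF3c gene in the table. EIF3K, EIF3L and EIF3F were at -0.45, -0.35 and -0.38 with edgeR adjusted p of 0.0552, 0.0715 and 0.0746. The scaffold subunit EIF3A, at 113 to 197 CPM with BSA and 167 to 251 CPM with GLP-2, stood apart in sign at 0.19 ± 0.10 (adjusted p = 0.191), and the loosely bound EIF3J was at 0.05 ± 0.12 (adjusted p = 0.792).

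**Figure D3:**
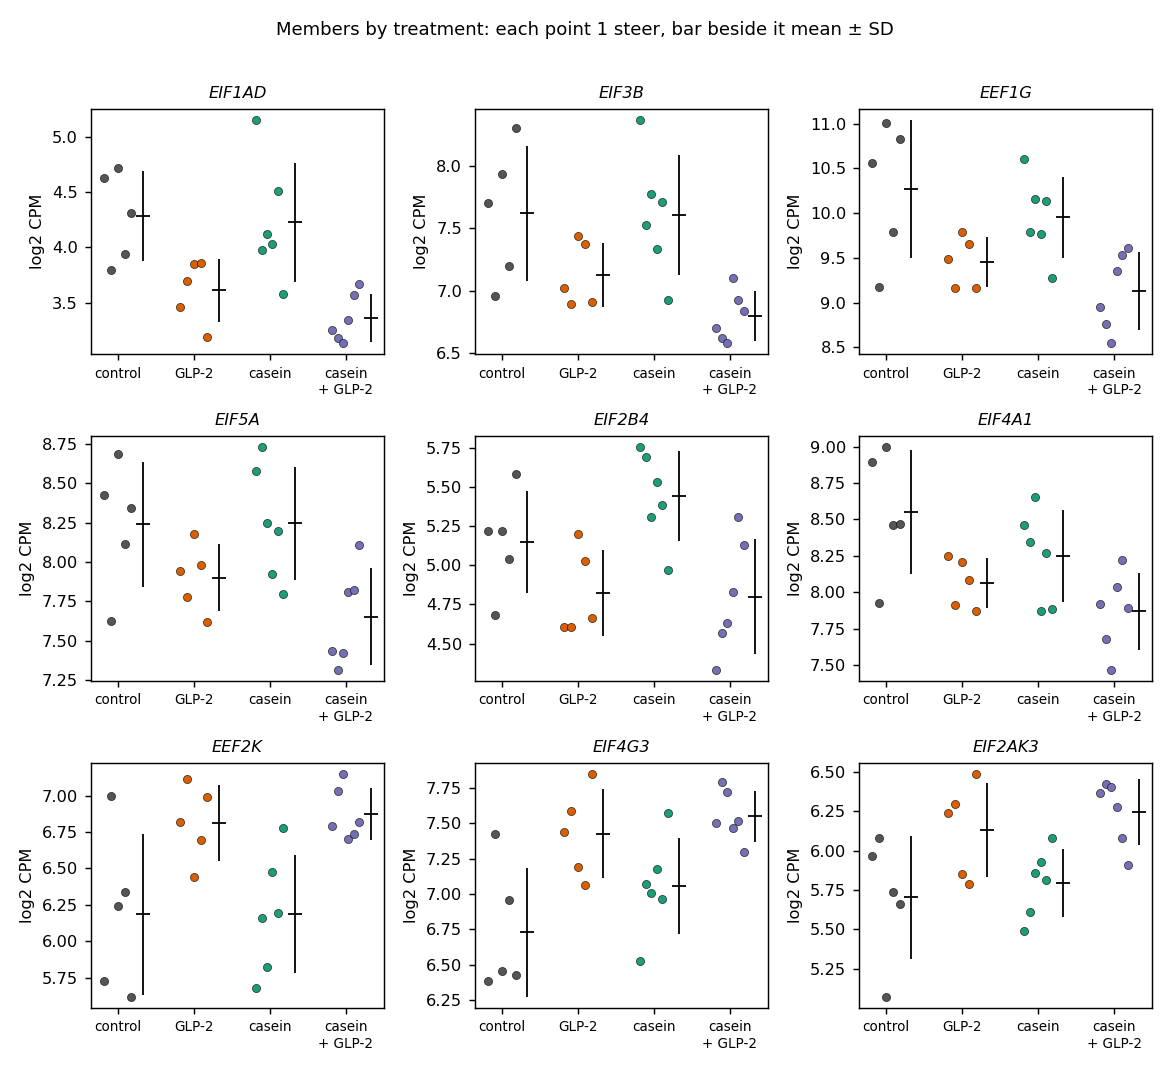
Log2 CPM of 9 genes by treatment; each point is 1 steer and the bar beside it is the mean ± SD. EIF1AD, EIF3B, EEF1G, EIF5A, EIF2B4 and EIF4A1 sit lower, and EEF2K, EIF4G3 and EIF2AK3 higher, in both GLP-2-injected groups on average, and in none of the panels are the BSA-injected and GLP-2-injected steers fully separate.

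In the EIF1 and EIF6 name groups, the clearest change was in EIF1AD (chromosome 29, 44090468 to 44093581, minus strand), a protein with an eIF1A-like domain. It was at 24.6, 13.8, 26.1, 15.2 and 19.7 CPM in the controls and at 10.9, 12.8, 14.3, 14.4 and 9.00 CPM in the GLP-2 steers. Casein steers ranged from 11.8 to 35.3 CPM and casein + GLP-2 steers from 8.66 to 12.6 CPM. Of 11 BSA-injected steers, 9 lay above every GLP-2-injected steer, and the log2 fold change was -0.83 ± 0.17 (edgeR adjusted p = 0.0189, the lowest among the members). EIF1AX, which encodes eIF1A, was at -0.42 (adjusted p = 0.0869), EIF1 at -0.32 (0.0748) and EIF1B, its close copy, at -0.35 (0.115), while EIF6, which keeps the large subunit from joining too early, was at 0.03 ± 0.14 (0.808).

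In the eIF2 group 4 of 5 genes of eIF2B, which reloads eIF2 with GTP, were lower past the threshold. Those of eIF2 itself were lower too but did not pass, and the difference between the complexes was not tested. EIF2B4 fell from a median of 39.5 CPM (range 25.6 to 53.8) with BSA to 25.3 CPM (20.0 to 39.6) with GLP-2, a log2 fold change of -0.50 ± 0.14 (edgeR adjusted p = 0.0255). EIF2B3 was at -0.70 ± 0.19 (0.0264), EIF2B1 at -0.52 ± 0.16 (0.0335) and EIF2B5, the catalytic subunit, at -0.34 ± 0.11 (0.0380). EIF2B2 was at -0.08 ± 0.12 (adjusted p = 0.645). The alpha subunit EIF2S1, which carries the regulatory phosphorylation site, was at -0.29 ± 0.12 (0.0858), with 50.6 to 92.1 CPM under BSA and 34.2 to 61.8 CPM under GLP-2. EIF2S2 and EIF2S3, the beta and gamma subunits, were at -0.28 (0.112) and -0.23 (0.180).

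Of the 4 kinases that phosphorylate eIF2, EIF2AK3 (PERK, the kinase of endoplasmic reticulum stress, chromosome 11, 47433953 to 47515738, plus strand) rose with GLP-2. It was at 62.4, 67.5, 33.5, 53.1 and 50.5 CPM in the controls and at 75.3, 78.4, 57.6, 55.0 and 89.6 CPM in the GLP-2 steers. Casein steers had 44.7 to 67.5 CPM and casein + GLP-2 steers 59.9 to 85.9 CPM. Of 11 GLP-2-injected steers, 8 were above every BSA-injected steer, and the log2 fold change was 0.44 ± 0.12 (edgeR adjusted p = 0.0289). EIF2AK4 (GCN2, which senses uncharged tRNA) was at 0.23 ± 0.11 (adjusted p = 0.141), EIF2AK2 (PKR) at 0.32 ± 0.25 (0.363) and EIF2AK1 (HRI) at -0.09 ± 0.12 (0.601). EIF2D was at -0.49 (0.0801) and EIF2A at -0.04 (0.817).

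The eIF4 group moved both ways. EIF4G3 (chromosome 2, 131485408 to 131837484, plus strand), a scaffold related to EIF4G1, was at 83.2, 172, 87.4, 124 and 85.9 CPM in the controls and at 174, 193, 146, 133 and 231 CPM in the GLP-2 steers. With casein it was at 91.9 to 191 CPM, and with casein + GLP-2 at 157 to 222 CPM. Every GLP-2-injected steer lay above the BSA median of 125 CPM, and the log2 fold change was 0.56 ± 0.15 (edgeR adjusted p = 0.0243). EIF4G1, the main scaffold, was at 0.21 ± 0.15 (0.308) and EIF4G2, which lacks the eIF4E site, at 0.06 ± 0.11 (0.722).

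The helicase EIF4A1 fell from a median of 352 CPM (234 to 511) with BSA to 242 CPM (177 to 304) with GLP-2, a log2 fold change of -0.46 ± 0.14 (edgeR adjusted p = 0.0400), whereas its paralog EIF4A2 was at 0.08 ± 0.12 (0.637). EIF4A3, of the exon junction complex, was at -0.35 (0.0546). Among the cap-binding proteins EIF4E2 was lower (-0.37 ± 0.10, adjusted p = 0.0258) with 9 of 11 BSA-injected steers above every GLP-2-injected steer, and EIF4E itself was at -0.34 ± 0.14 (0.0885). The eIF4E binding proteins, the direct mTORC1 targets, did not pass: EIF4EBP1 was at -0.55 ± 0.28 (0.161), EIF4EBP2 at 0.47 ± 0.17 (0.0584) and EIF4EBP3 at 0.00 ± 0.18 (0.996), all by edgeR.

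EIF5A, the factor that relieves stalled ribosomes, was at 343, 198, 412, 277 and 325 CPM in the controls and 246, 219, 290, 253 and 197 CPM in the GLP-2 steers. It was at 223 to 425 CPM with casein and 159 to 275 CPM with casein + GLP-2. The log2 fold change over all steers was -0.50 ± 0.14 (edgeR adjusted p = 0.0297), with every GLP-2-injected steer below the BSA median. EIF5B, the GTPase of subunit joining, was at -0.55 ± 0.16 (0.0333), and EIF5, which triggers GTP hydrolysis on eIF2, at -0.12 ± 0.10 (0.413).

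In elongation, the 3 tested genes of the eEF1B complex were lower and EEF2 did not pass. EEF1G (chromosome 29, 40915995 to 40927583, minus strand) was at 1506, 578, 2052, 884 and 1816 CPM in the controls and at 719, 576, 885, 807 and 575 CPM in the GLP-2 steers. Casein steers had 620 to 1559 CPM and casein + GLP-2 steers 375 to 784 CPM. Control replicates 2 and 4 lay within the range of the GLP-2 steers, and the log2 fold change was -0.89 ± 0.21 (edgeR adjusted p = 0.0216). EEF1D, the second exchange subunit, showed the widest shift, from a median of 319 CPM (138 to 736) with BSA to 166 CPM (92.5 to 341) with GLP-2, -1.09 ± 0.29 (adjusted p = 0.0243). EEF1B2 was at -0.55 ± 0.18 (0.0469). EEF1A1, the substrate of the complex, was at -0.34 ± 0.18 (0.173) and EEF2 at -0.08 ± 0.14 (0.690). EEF1A1 has many near-identical processed copies, so its count is uncertain.

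EEF2K (chromosome 25, 19903413 to 19955828, plus strand), the kinase that inactivates eEF2, rose. It was at 52.7, 128, 75.7, 80.7 and 49.0 CPM in the controls and 113, 139, 86.8, 104 and 127 CPM in the GLP-2 steers, 51.1 to 109 CPM with casein and 104 to 142 CPM with casein + GLP-2. Of 11 BSA-injected steers, 8 lay below every GLP-2-injected steer. The level with GLP-2 was 1.53 times that with BSA (log2 fold change 0.62 ± 0.15, edgeR adjusted p = 0.0226). The methyltransferases EEF1AKMT3, EEF1AKNMT and EEF2KMT were at -0.50, -0.28 and -0.08, with adjusted p of 0.192, 0.352 and 0.903.

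The scrapings differed in their markers of other cells. The EIF3 genes were high where the B cell follicle score was: in the 4 steers with a follicle score over 5 (control replicates 1, 3 and 5 and casein replicate 3) their mean log2 CPM was 7.66, 7.62, 7.57 and 7.40, against 6.83 to 7.40 in the other 7 BSA-injected steers and 6.52 to 7.17 with GLP-2. The other groups overlapped more. In the same order the EEF score was 7.02, 7.22, 6.60 and 6.68, against 6.27 to 7.11 in the other 7. The EIF2 score was 5.95, 5.58, 5.62 and 5.76, against 5.39 to 5.72. With GLP-2 against BSA, 17 of the 18 tested follicle markers and 5 of 12 proliferation markers were lower and 2 of 16 villus enterocyte markers higher, with 2 of 7 plasma cell, 1 of 10 T cell and 0 of 9 smooth muscle markers lower. With the follicle, villus enterocyte or proliferation score as a covariate, or without those 4 steers, 0 of the 61 genes passed by edgeR. At an unadjusted edgeR p of at most 0.05 there were 4, 5, 11 and 22 of the 61 genes. Of all genes, 2.92%, 4.55%, 10.1% and 13.5% had such a p. No gene of the whole table passed in any of the 4 fits either. The sign of the 23 genes did not turn in any of the 4 fits: all 20 lower genes stayed below 0, with medians of -0.22, -0.20, -0.29 and -0.35 against -0.54 in all steers, and the 3 higher genes stayed above 0. With the follicle score the lower genes ran from -0.56 (EIF1AD) to -0.012 (EIF4A1), with EEF1B2 at -0.040. Without the 4 steers, EIF1AD was at -0.75, EEF1D at -0.80, EIF3B at -0.55 and EEF2K at 0.43. For 17 of the 23 genes the unadjusted edgeR p was at most 0.05. The 23 genes had been picked by their p in a fit that held the same steers. Neither this share nor their kept sign can therefore be set against the other genes. The part of the cell make-up in the differences was not tested beyond these fits.

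**Figure D4:**
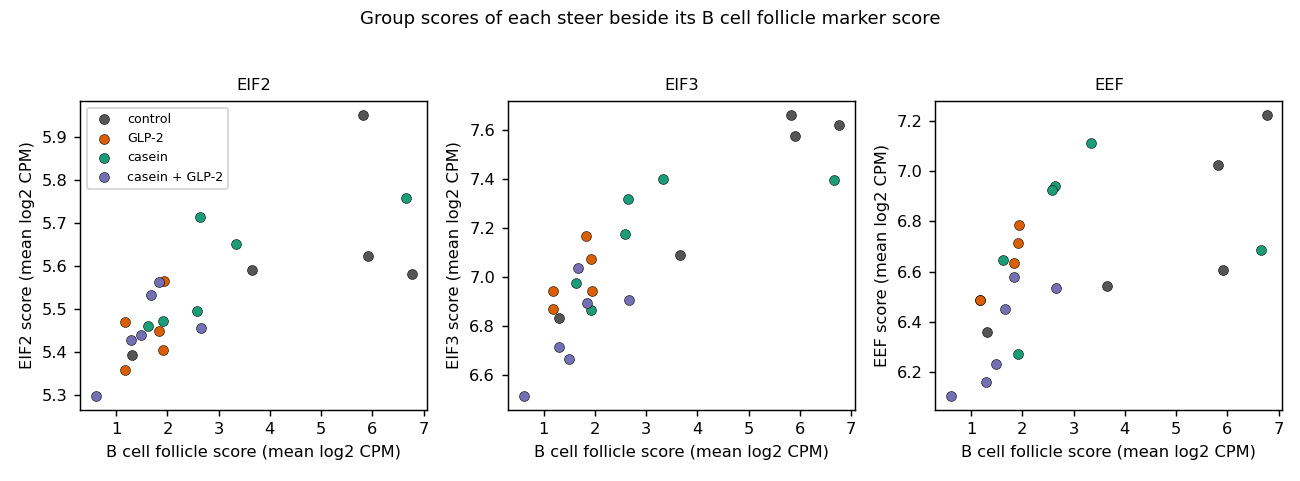
Mean log2 CPM of the EIF2, EIF3 and EEF genes in each of 22 steers against the steer's B cell follicle score, coloured by treatment. GLP-2-injected steers lie at follicle scores of 0.608 to 2.66, and the 4 steers above 5 are 3 controls and 1 casein steer, with EIF3 scores of 7.40 to 7.66.

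With the BW block of the steers in the fit, 689 of all 13928 genes passed, against 1881 without the block (edgeR adjusted p of at most 0.05). Of the 23 genes 8 passed: EIF1AD, EIF3B, EEF1G, EEF1D, EIF2B4 and EIF3M lower, and EEF2K and EIF4G3 higher. The other 15 had adjusted p between 0.051 and 0.075 and kept their sign. The DESeq2 Wald test passed 29 genes, all 23 among them. EIF1AD, EIF3B, EIF3D, EEF1G, EEF1D, EEF2K and EIF4G3 passed in each of the 22 fits that left out 1 steer, and EIF3H and EEF1B2 in 9. Single steers moved the count: 7 genes passed without casein + GLP-2 replicate 3, 9 without control replicate 3, 11 without control replicate 1 or casein replicate 1, 13 without GLP-2 replicate 6, 14 and 15 without casein + GLP-2 replicates 1 and 2, with up to 30 without control replicate 2 or casein replicate 6. How many of all genes passed by DESeq2 or without single steers is not given here, so these counts cannot be set against the whole table.

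The GLP-2 effect was also read within each infusion, with fewer steers behind it. Of the 61 genes, 40 were lower with GLP-2 in both infusions (65.6%), 12 higher in both (19.7%) and 9 of opposite sign (14.8%), where 35.6% of all 15086 genes were lower in both, 36.4% higher in both and 28.0% of opposite sign. Of the 13 EIF3 genes, 11 were lower in both. The median was -0.29 on the log2 scale with water and -0.30 with casein infused, and no gene passed in either (edgeR, with 0% of all 15086 genes passing in both). At an unadjusted p of at most 0.05 there were 23 and 25 genes, with 13.9% and 24.1% of all genes. The DESeq2 Wald test passed 1 gene and 7 genes, all lower, and edgeR without control replicate 2 passed 4 genes for GLP-2 against control. How many of all genes passed in those fits is not given here, so these counts cannot be set against the whole table. EIF1AD was at -0.70 ± 0.26 with water and -0.95 ± 0.24 with casein, EEF1G at -0.94 ± 0.31 and -0.83 ± 0.29, and EEF2K at 0.56 ± 0.23 and 0.65 ± 0.21. EIF2B4 was at -0.33 ± 0.21 and -0.63 ± 0.19.

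**Figure D5:**
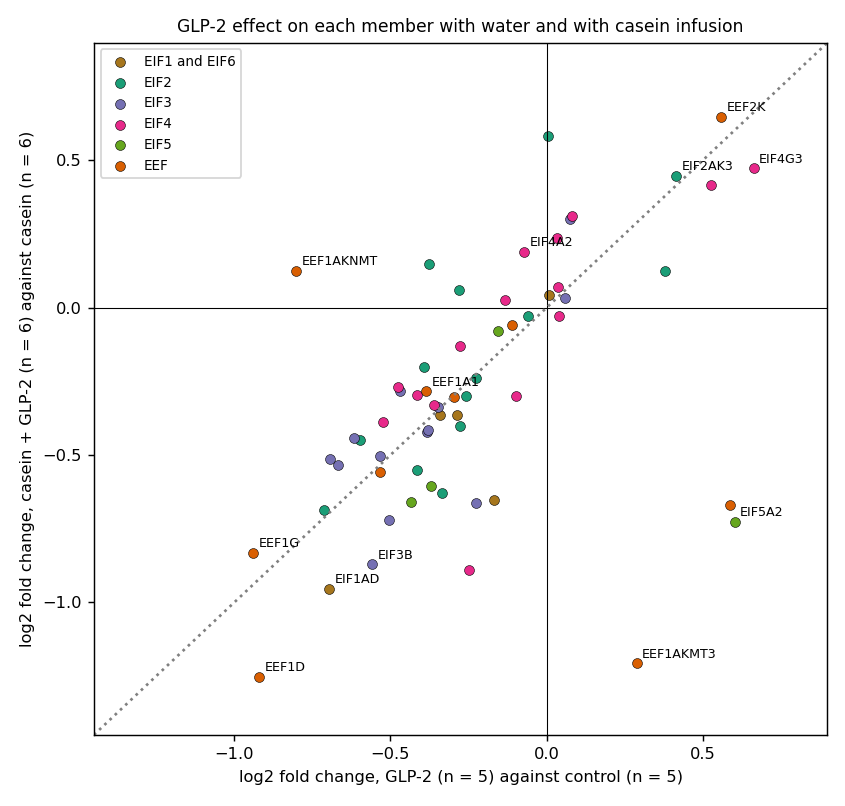
Log2 fold change of each of the 61 genes for GLP-2 against control (x axis, 5 against 5 steers) and casein + GLP-2 against casein (y axis, 6 against 6 steers); the dotted line marks equal effects. Of the points, 40 lie below 0 on both axes and 12 above 0 on both, and EEF1AKMT3, EEF1AKNMT and EIF5A2 are among the 9 of opposite sign.

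The difference between the 2 GLP-2 effects was tested as an interaction. No gene passed (edgeR, with 0% of all genes and an adjusted p of at least 0.996 for the members; DESeq2 passed 0), and 3 members had an unadjusted p of at most 0.05, where 4.28% of all genes did. EEF1AKMT3, a lysine methyltransferase of eEF1A, was at 6.06, 1.94, 3.84, 3.38 and 2.56 CPM in controls, 6.23, 3.48, 3.49, 4.37 and 4.27 CPM in GLP-2 steers, 3.06 to 10.2 CPM with casein and 1.72 to 3.31 CPM with casein + GLP-2. Its effect was 0.29 ± 0.36 with water and -1.21 ± 0.34 with casein. EEF1AKNMT, which also methylates eEF1A, was at -0.80 ± 0.28 and 0.13 ± 0.26, and EIF2B2 at -0.38 ± 0.16 and 0.15 ± 0.15.

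Postruminal casein infusion changed none of these genes past the threshold. With 12 casein-infused against 10 water-infused steers, 0 of 61 genes passed by edgeR and 0 by DESeq2, and 0% of all 14096 genes passed by edgeR. At an unadjusted p of at most 0.05 there were 2 members, where 3.36% of all genes had such a p. The median on the log2 scale was -0.11, with 45 of 61 genes below 0 (49.3% of all genes), and 0.02, with 28 below 0, without the 4 steers with a follicle score over 5. EIF5A2, a low-level paralog of EIF5A, ranged from 0.208 to 5.33 CPM (median 1.94) with casein and from 0.301 to 2.03 CPM (median 1.06) with water, and its log2 fold change was 1.07 ± 0.43 (edgeR unadjusted p = 0.0195, adjusted p = 0.994). The highest 3 steers, at 5.33, 4.09 and 3.24 CPM, were casein steers without GLP-2, and the lowest of all was casein replicate 5. EIF3F was at 111 to 181 CPM (median 152) with casein and 146 to 323 CPM (median 170) with water, -0.38 ± 0.15 (unadjusted p = 0.0200, adjusted p = 0.994 by edgeR), and EIF3CL at -0.29 ± 0.14 (0.0505, 0.994). Without the 4 steers with a follicle score over 5, EIF3F was at -0.0859 and EIF3CL at -0.129.

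The amino acid and mTORC1 regulators did not pass the threshold with casein. EIF2AK4 was at 32.8 to 60.2 CPM with casein and 31.6 to 55.9 CPM with water, a log2 fold change of 0.17 ± 0.12 (edgeR adjusted p = 0.994). EIF4EBP1 was at -0.38 ± 0.30, EIF2S1 at -0.12 ± 0.13, EIF4E at 0.02 ± 0.16 and EEF2K at 0.01 ± 0.19, each with an edgeR adjusted p of at least 0.994. Leaving out 1 steer moved EIF4EBP1 between -0.60 (without casein replicate 1) and -0.21 (without control replicate 5), and EIF2S1 between -0.17 (without GLP-2 replicate 5) and -0.035 (without control replicate 1). The 13 EIF3 genes were all below 0 (median -0.20), but EIF3B, EIF3D, EIF3E, EIF3H, EIF3I and EIF3M were above 0 without the 4 steers with a follicle score over 5. When casein was compared within each injection, 35 of 61 genes were lower in both, 9 higher in both and 17 of opposite sign (27.9%), where 25.9% of all genes were lower in both, 25.9% higher in both and 48.2% of opposite sign. No member passed in either comparison by edgeR (0% of all genes) or DESeq2, with 2 genes at an unadjusted p of at most 0.05 in each, where 5.66% (BSA) and 2.64% (GLP-2) of all genes had such a p.

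Paralogs were compared as log2 ratios within a steer, in which the library scaling cancels. The exception is low counts, where the added prior count of 2 also enters, as for EIF5A2 (4 to 90 counts per steer). EIF4A, EIF5A, EIF4G, EIF4E, EIF4EBP and EIF1 pairs were tested for both factors, 12 tests in all, by a permutation test with 100000 resamples. The EIF4A1:EIF4A2 ratio was -0.98 ± 0.40 (SD, n = 11) with GLP-2 and -0.48 ± 0.42 (n = 11) with BSA, a 2-sided permutation p of 0.0104 and 0.113 after Benjamini-Hochberg adjustment. For EIF4EBP1:EIF4EBP2 the ratios were -1.99 ± 0.88 and -0.99 ± 1.04, and for EIF4G1:EIF4G3 0.87 ± 0.26 and 1.23 ± 0.48, both with an adjusted permutation p of 0.113. With labels permuted within BW block these 3 ratios had an adjusted permutation p of 0.0452. With casein the EIF5A:EIF5A2 ratio was 7.02 ± 0.97 (n = 12) against 7.99 ± 1.04 (n = 10) with water (adjusted permutation p = 0.113, and 0.0563 within block), and 0.021 without casein replicate 5. The EIF1:EIF1B ratio was 3.26 ± 0.23 with casein and 3.08 ± 0.23 with water (adjusted permutation p = 0.143, and 0.0452 within block).

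Lists of the translation apparatus were read beside the 8.37% of all genes that were lower and the 5.13% that were higher with GLP-2. The first list holds members only: of 9 whose mRNA carries a 5′ terminal oligopyrimidine tract, which ties translation of the mRNA to mTORC1, 5 were lower with GLP-2 (median of -0.40 on the log2 scale), all of them among the 20 lower genes above, so that the count repeats them. The other lists hold genes outside the 63. Of 28 table rows for 27 further cytosolic factors, 7 were lower and none higher, with a median of -0.25: PA2G4, a ribosome-bound growth regulator, at -0.68 ± 0.17 (edgeR adjusted p = 0.0226) and EEFSEC, the elongation factor for selenocysteine, at -0.88 ± 0.25 (0.0292) had the smallest p. Of 22 cytosolic tRNA synthetases 4 were lower (median -0.09), both subunits of the phenylalanine enzyme among them (FARSA -0.63 and FARSB -0.73). Of 10 mitochondrial factors 1 was lower (GUF1, -0.61 ± 0.19, adjusted p = 0.0376), and of 31 mTORC1 pathway genes 1 was lower (CASTOR1, the arginine sensor, -0.83 ± 0.21, 0.0226), with RPTOR at 0.43 (0.0676). Of 11 genes of the response to eIF2 phosphorylation 1 was higher, PPP1R15B, a phosphatase subunit for eIF2, at 0.88 ± 0.24 (0.0252). For comparison, 63 of 84 tested cytosolic ribosomal protein genes were lower with GLP-2 (median -0.74). With casein none of the genes in these lists passed by edgeR, whose smallest adjusted p over all genes was 0.994; at an unadjusted p of at most 0.05 there were 1 of 9, 0 of 28, 0 of 22, 0 of 10, 1 of 31 and 0 of 11 in the order given, and 2 of the 84 ribosomal protein genes, where 3.36% of all genes had such a p.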

How the data were processed

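The authors filtered reads with fastp, aligned them to ARS-UCD1.2 with HISAT2 (2.0.5) and counted them per gene with featureCounts (1.5.0-p3); StringTie (1.3.3b) is also listed in their processing notes. The deposited files hold raw counts and FPKM; within a steer, the authors' FPKM equalled counts per kilobase times 1 factor, 0.798 to 1.37 of that from the library total. How reads of near-identical genes were counted is not given in the sources used here. Libraries were strand-specific.

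Counts were fitted with edgeR (4.0.16, R 4.3.3): filterByExpr with a minimum count of 10, TMM, quasi-likelihood F test and Benjamini-Hochberg adjustment over all genes tested. The standard error is the log2 fold change over the root of F. The study used DESeq2, here (1.42.0) an alternative, as are limma (3.58.1) on log2 FPKM, other scalings, filters and covariates, the BW block and leaving out each steer. The script was tested on simulated counts. Block numbers pair steers by design, as steers were assigned to treatments within BW strata; deviations correlated by 0.0331 on average over 30 same-block pairs (-0.464 to 0.387) and by -0.00641 over 151 others.

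The genes and lists were chosen with earlier results of these data known. Genes named with values were those past the threshold, the most abundant and lowest-p gene of each group, the 3 lowest-p genes with casein, the paralog pairs, 5 regulators and the 2 lowest-p genes of each list. Genes named beyond this rule were chosen after their values were seen. Scores are mean log2 CPM with a prior count of 2. Coordinates are those of the deposited table.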

Additional observations from a re-analysis of the deposited data

Results flagged for a closer look

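Of 172 sets of 1 gene in 1 treatment with 4 to 6 steers, 5 held a steer that stood apart from the rest of its treatment by Dixon's test at 95%; chance alone gives such a flag in about 1 of 20 sets. EIF1 was highest in control replicate 1, at a log2 CPM of 9.46 with the next control at 9.03. EIF2B5 was highest in GLP-2 replicate 5, at 5.98 with the next steer at 5.79, and EIF3H was highest in GLP-2 replicate 4, at 7.47 with the next at 7.13. In casein + GLP-2 steers, EIF3D was highest in replicate 6, at 7.13 with the next at 6.72, and EIF2S3 was lowest in replicate 3, at a log2 CPM of 6.597 with the next at 6.98.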

How the results depend on the processing

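The count of 23 genes for GLP-2 against BSA became 0 with the follicle, villus enterocyte or proliferation score as a covariate or without the 4 steers with a follicle score over 5 (the villus, the proliferation and the 4-steer fits were chosen after seeing the data), 8 with the replicate block, and 7 to 30 when each steer was left out in turn. It was 18 to 33 under 13 other settings: DESeq2, other scalings, filters, limma, the threshold of 0.10, the other factor, a gene length correction (1 higher, EEF2K, and 27 lower) and that correction with the replicate block (20). Of all genes, 2296 passed with the length correction and 1189 with that correction and the replicate block. Counts over all genes are not given here for DESeq2, limma or the fits that left out 1 steer. The cause of these shifts was not tested.

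For GLP-2 against control DESeq2 gave 1 gene and leaving out a steer 0 to 4; for casein + GLP-2 against casein DESeq2 gave 7. With labels permuted within the replicate block, the differences EIF4A1:EIF4A2 (-0.50), EIF4G1:EIF4G3 (-0.36) and EIF4EBP1:EIF4EBP2 (-1.01) for GLP-2 and EIF1:EIF1B (0.19) for casein passed; apart from these and the 15 genes named in the results, the block changed no call. Over the fits leaving out each steer, EIF4A1:EIF4A2 ran from -0.56 to -0.42, EIF4EBP1:EIF4EBP2 from -1.18 to -0.86 (both passed without control replicate 2, adjusted permutation p = 0.0495), EIF4E:EIF4E2 from -0.0112 to 0.113, EIF1:EIF1B with GLP-2 from -0.0257 to 0.0659, and EIF5A:EIF5A2 with casein from -1.21 to -0.79.

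The 23 genes that passed for GLP-2 kept their sign in every setting. They had been picked by their p in the same steers, so their sign could turn less easily than that of genes near 0. Of the other members, 13 turned sign with the follicle score, 10 with the villus score and 6 without the 4 steers, and at most 5 in each other setting. For casein, where none had passed, 27 of 61 turned sign without the 4 steers, 17 with the follicle score and at most 8 in each other setting. Among the genes followed singly, those for GLP-2 were EEF1A1 (0.114), EIF2S3 (0.0365) and EIF3F (0.0099) with the follicle score, EIF4A2 (-0.087), EIF4EBP1 (0.132) and EIF4G1 (-0.0070) with the villus score, EIF4A2 (-0.0322) by library size, EIF5A2 with limma on log2(FPKM + 0.1) (0.156) and with the replicate block (0.0262), and EIF4A2 without single steers (-0.0072 to 0.134). Among those for casein, EEF2K was at -0.128 with the follicle score, -0.0909 with the proliferation score, -0.0438 with the villus score, -0.0187 with the length correction, -0.0084 with the replicate block, -0.0405 with both, -0.14 without the 4 steers and -0.0653 to 0.0853 without single steers. EIF4E was at -0.0492 to 0.117 without single steers, EIF2S3 at 0.0531 without the 4 steers, and EIF5A at 0.0424 with the follicle score and 0.0979 without the 4 steers. EIF5A2, EEF1AKMT3 and EEF2KMT had few counts per steer, which limits their precision.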

Other observations

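EEF1A2, which encodes the eEF1A of muscle and nerve and was too low to test, was uneven between steers. It had 77, 19 and 15 counts in control replicates 5, 3 and 1, 33 and 28 counts in casein replicates 5 and 3, and at most 4 counts in each of the other 17 steers. These 5 steers include the 4 with a B cell follicle score over 5, and casein replicate 5 was at 2.58. The smooth muscle score (mean log2 CPM of 9 markers) of those 5 steers was 6.89, 5.80, 2.33, 5.80 and 4.55 in the same order, and GLP-2 replicate 1, with a score of 6.01, had 0 EEF1A2 counts. EEF2KMT, the methyltransferase of eEF2, had 0 counts in control replicate 5 and 11 to 112 counts in the other 21 steers.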
